A study of Homo sapiens with 60 samples.

Results

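The messenger RNAs of the cytosolic ribosomal proteins were followed across 60 RNA-seq libraries of HT29 cells, a human colorectal adenocarcinoma line. Members were the protein-coding genes whose symbol is RPL or RPS plus a number, with an optional ending made of A, X, L or P, and RPLP0, RPLP1, RPLP2 and RPSA, at a mean of at least 10 CPM (counts per 1000000 gene counts of the library). The S6 kinase genes were left out. Of 60675 genes in the count table, 79 were members, 47 of the large ribosomal subunit and 32 of the small one. The name rule alone was met by 82 protein-coding genes, and 3 of them lay below the limit. RPS27L, at a mean of 60.9 CPM, was the member nearest to the limit, and RPL3L, at 0.0965 CPM, was the nearest gene outside it. RPL39L and RPL10L were listed at 0 in all 60 libraries, and a count of 0 allows up to 0.270 CPM in the shallowest library (3 counts, counting error only).

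All cells were treated for 24 h, and each of 20 groups had 3 libraries. Vehicle cells received 0.1% DMSO by the sample labels, whereas the series text gives 2%. The positive control was wortmannin at 10 µM, an inhibitor of phosphoinositide 3-kinases. Hot-water extracts of fresh ginger (Zingiberis Rhizoma Recens), ginger (Zingiberis Rhizoma), Pinelliae Tuber, Scutellariae Radix and Zizyphi Fructus were given at 500, 100 and 20 µg/mL, here called high, medium and low. The doses of Coptidis Rhizoma were 290, 58 and 11.6 µg/mL, because the series text sets the top dose at the IC20 where that lies under 500 µg/mL. Whether the replicates of a group were cultured separately is not stated, so p-values measure the spread between these libraries, which may be technical. The first part of the sample code differs between vehicle, wortmannin and the extracts, and the extracts fall into 3 codes: fresh ginger and ginger in 1, Scutellariae Radix and Pinelliae Tuber in another, and Zizyphi Fructus and Coptidis Rhizoma in the last. What the code stands for is not given in the labels. Each extract was therefore compared high against low within its own code, and the comparisons with vehicle cross codes.

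Ribosomal-protein messenger RNAs are among the most abundant transcripts of a growing cell, and their products are needed in nearly equal numbers to build the large and small subunits. In most of them transcription starts at a C followed by a run of pyrimidines, the terminal oligopyrimidine (TOP) tract. Through this tract the kinase complex mTORC1 and the RNA-binding protein LARP1 control how much of the messenger RNA is translated and how long it is kept, and phosphoinositide 3-kinase acts upstream of mTORC1.

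Start-site windows are shown for 10 members that the results below turn on. Most members with a RefSeq entry had a TOP tract at an annotated start, and some did not. Each window is 30 bases of RefSeq sequence (GRCh38.p14) from 5′ to 3′, with 15 bases upstream of the annotated start. Capitals mark the start base and the unbroken run of C or T that begins there, and the capitals therefore lie in the first exon, at the beginning of the 5′ untranslated region.
RPS6 (chr9:19380222-19380251, minus strand): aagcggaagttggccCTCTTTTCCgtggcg
RPS23 (chr5:82278340-82278369, minus strand): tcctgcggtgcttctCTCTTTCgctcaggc
RPS27 (chr1:153990747-153990776, plus strand): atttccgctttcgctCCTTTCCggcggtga
RPL36A (chrX:101390996-101391025, plus strand): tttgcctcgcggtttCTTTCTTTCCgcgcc
RPL38 (chr17:74203663-74203692, plus strand): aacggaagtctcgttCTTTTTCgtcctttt
RPL13A (chr19:49487593-49487622, plus strand): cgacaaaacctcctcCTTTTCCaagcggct
RPL4 (chr15:66504841-66504870, minus strand): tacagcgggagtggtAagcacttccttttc
RPS26 (chr12:56041903-56041932, plus strand): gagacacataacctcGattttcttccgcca
RPL36AL (chr14:49620612-49620641, minus strand): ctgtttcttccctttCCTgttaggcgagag
RPS27L (chr15:63157463-63157492, minus strand): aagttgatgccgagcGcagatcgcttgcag
In the first 6 windows the annotated start is a C followed by at least 4 further pyrimidines, and in the last 4 it is not. The exact annotated base was read. A pyrimidine run that begins a few bases away, as in the RPL4 window, was not counted. RPS27L and RPL36AL are copies of RPS27 and RPL36A elsewhere in the genome, and neither copy has the tract that its parent gene has at this annotated start. The coding sequences of RPS27 and RPS27L, both 255 bases long, share 78.0% of their bases, and those of RPL36A and RPL36AL, both 321 bases long, share 90.0%. Of the 64 members with a RefSeq entry, 46 (71.9%) had a C at an annotated start followed by at least 4 letters C or T, against 1404 of 27305 genes with an entry (5.14%), members included. Within 250 bases before and 50 bases after the start, CCGGAAG, the core bound by ETS factors such as GABPA, was found on either strand in 35.9% of the members and 12.2% of all genes. TATAAA was found in 7.81% of members against 14.0% of genes, and CACGTG, the E-box bound by MYC, in 6.25% against 8.77%. The motifs were searched separately, and overlaps between matches were not examined. A match is a description of the sequence only.

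Depth, in units of 1000000 gene counts, ranged from 11.1 to 34.4 per library (median 23.4). The epithelial markers EPCAM, CDH1, KRT8, KRT18, KRT20 and VIL1 were above 100 CPM in every library, while CDX2 (3.78 to 9.94 CPM) and CEACAM5 (1.96 to 11.3 CPM) were low. Of the 6 markers of other cell types, PTPRC, CD3E, COL3A1 and CDH5 did not exceed 0.180 CPM in any library, COL1A1 lay between 0.869 and 1.89 CPM and PECAM1 between 0.388 and 2.37 CPM.

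In per-length terms, the members spanned 9.48 to 2005 normalised CPM per kilobase (median 749), where normalised CPM are CPM scaled between libraries by the trimmed mean of M-values (TMM). RPL13A, a large-subunit protein that also takes part in translational silencing in interferon-treated myeloid cells, stood highest at 2005 per kilobase, and RPS16 (1970) and RPS2 (1947) of the small subunit came next. RPS27L (9.48), RPL36AL (97.5) and RPL37 (102) stood lowest. These per-length levels rest on 1 annotated transcript per gene, which for RPL37 (7686 bases) and RPS27L (6434 bases) is far longer than the median member's 815 bases. By mean CPM, without a length, RPS27L (60.9) and RPL36AL (72.6) were among the lowest members, and their parents RPS27 (546) and RPL36A (361) stood well above them. RPL22 varied least over the 60 libraries, from 445 to 602 normalised CPM, and RPL3, the protein next to the peptidyl transferase centre, varied from 964 to 1429. RPS29 varied most, from 44.8 to 190 normalised CPM.

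Together the members took between 4.93% and 8.20% of a library's counts. An earlier analysis of these data described 4 libraries as standing apart from the others of their group by this share, and they are called so here, with no threshold. The share was 6.90% in vehicle replicate 1, against 5.83% and 5.56% in replicates 2 and 3. It was 6.32% in the low dose of fresh ginger replicate 1, against 5.07% and 5.73%, and 6.30% in the high dose of ginger replicate 2, against 5.57% and 5.34%. In the high dose of Zizyphi Fructus replicate 3 it reached 8.20%, against 5.19% and 5.62%. Coptidis Rhizoma high replicate 1, at 7.22% against 6.41% and 6.49%, also lay above its group and is not among the 4. Its distance to the nearest library of its group was like that of the ginger library. Its median member lay 0.16 log2 above the mean of the other libraries of its group, against 0.23 in the ginger library. Apart from these 4 libraries and the 3 of the Coptidis Rhizoma high dose, the share lay between 4.93% and 5.83% in all 53 libraries (median 5.34%). Members moved together within libraries, also beyond the 4 that were picked by their share. For the normalised levels, each library was set against the mean of the other libraries of its group. The number of higher members was 79 of 79 in vehicle replicate 1, Zizyphi Fructus high replicate 3 and ginger medium replicate 1. It was 78 in ginger high replicate 2, 77 in Coptidis Rhizoma high replicate 1, Coptidis Rhizoma medium replicate 2 and Pinelliae Tuber high replicate 1, and 76 in fresh ginger low replicate 1. In Zizyphi Fructus high replicate 3 the median member was 0.73 above the mean of the other high-dose libraries on the log2 scale. Of the 79 members, 74 had their highest level of all 60 libraries there.

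**Figure D1:**
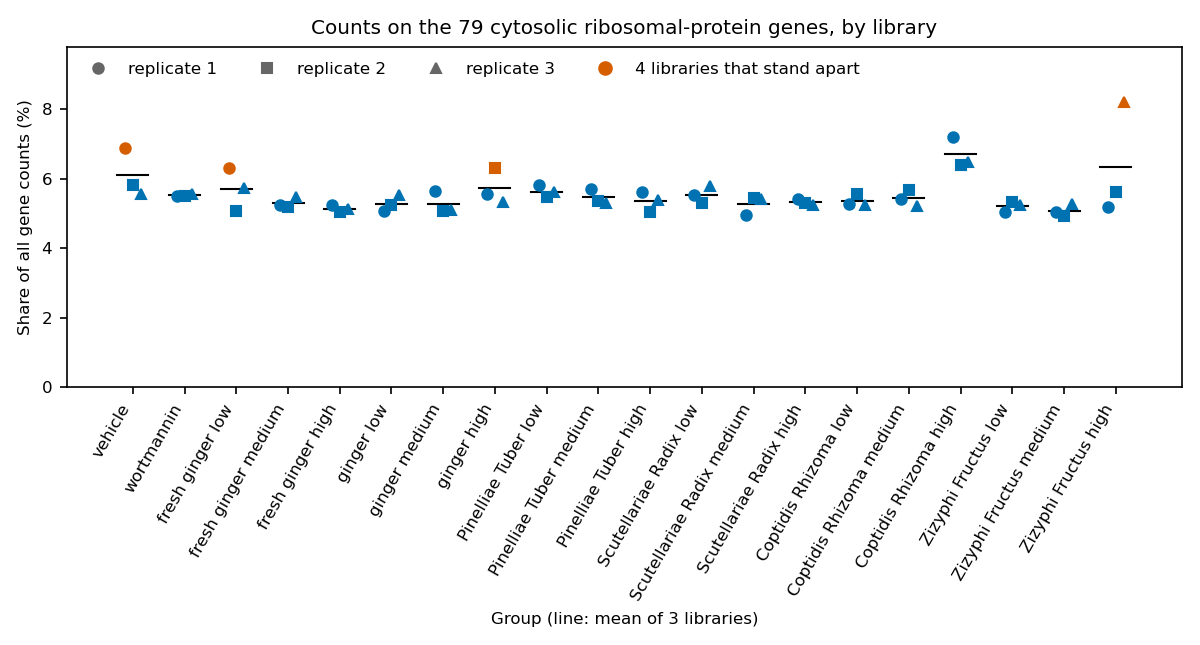
Share of all gene counts on the 79 ribosomal-protein genes (y axis, percent) for each of 60 libraries, by group (x axis); symbols are replicates and lines are group means of 3. The 4 libraries in orange lie between 6.30% and 8.20%, above the other libraries of their groups, and the 3 libraries of the Coptidis Rhizoma high dose lie between 6.41% and 7.22%.

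Other short transcripts were also more abundant in those 4 libraries. Protein-coding genes outside the family with a transcript under 1000 bases held 4.19% to 5.17% of counts there, against 3.27% to 3.85% in the 53 other libraries. Mitochondrial ribosomal proteins, encoded by other nuclear genes, held 0.466% to 0.559%, against 0.392% to 0.450%. Genes with a transcript over 5000 bases held 16.0% to 18.3%, against 19.3% to 22.5%. Coptidis Rhizoma high replicate 1 held 4.20% on the short transcripts, within the range of the 4 libraries, and 20.2% on the long ones, outside it. None of the 3 ranges overlapped between the 4 and the 53 libraries, while depth (11.6 to 23.1 in the same units in the 4 libraries) lay within the range of the rest. Zizyphi Fructus high replicate 3 was set against the mean of the other libraries of its group, by length class. Genes outside the family were shifted by a median of 0.72 log2 for transcripts under 700 bases. Their shift was 0.36 from 1000 to under 2000 bases and 0.02 from 2000 to under 5000 bases. The members of those classes were shifted by 0.81, 0.67 and 0.70. These classes rest on 1 annotated transcript per gene. For some members it is far longer than the median of 815 bases, as for RPL27A (4916) and RPL28 (4796). Whether those transcripts are the ones expressed was not tested, so the longer classes of members may hold short messenger RNAs. The part of transcript length in the members' levels was not tested.

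**Figure D2:**
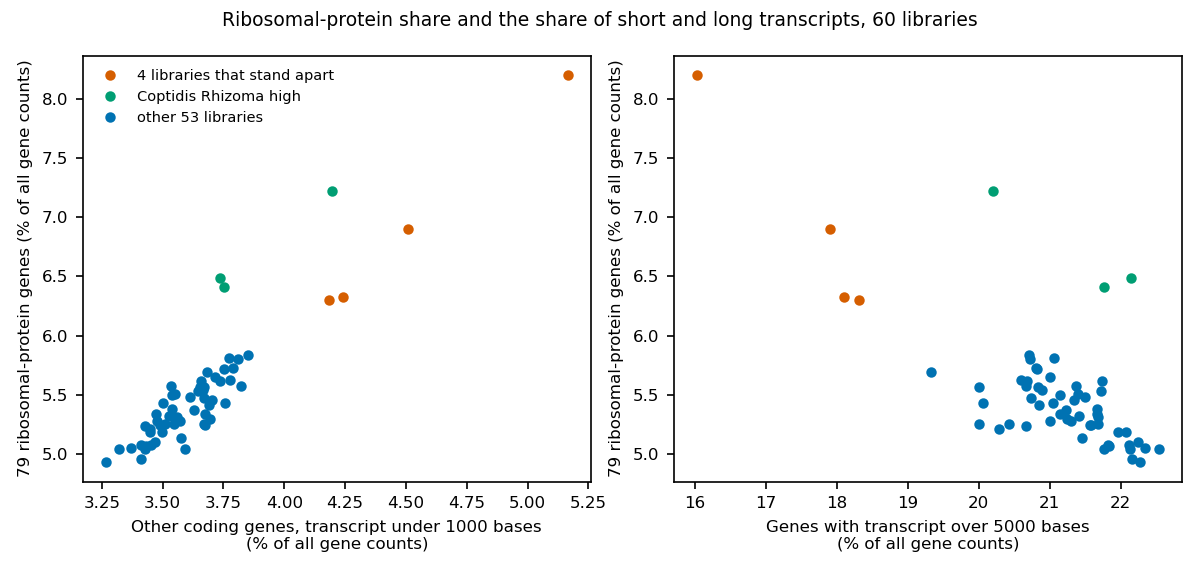
Ribosomal-protein share (y axis, percent of all gene counts) against the share of other coding genes with transcripts under 1000 bases (left) and of genes with transcripts over 5000 bases (right), 1 point per library. The 4 libraries that stand apart have 4.19% or more on short and 18.3% or less on long transcripts, while the Coptidis Rhizoma high libraries lie at 4.20%, 3.75% and 3.74% on short and 20.2% to 22.1% on long transcripts, so that replicate 1 overlaps the 4 libraries on the left.

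The members differed in how far they were shifted in these libraries, and the order was shared by some of them. Each shift was taken from the mean of the other libraries of the group. Across the 79 members, the shift in vehicle replicate 1 had a Pearson correlation of 0.85 with that in Zizyphi Fructus high replicate 3. With that in fresh ginger low replicate 1 the correlation was 0.77. Ginger high replicate 2 gave correlations of -0.23 to -0.53 with the other 3. These are descriptions across 79 genes of the same family, which are not independent, and the libraries share no group. Over all groups, the median within-group SD of a member was 0.15 on the log2 scale, against 0.08 for 4386 other genes at a mean of 50 CPM or more. In the 16 groups without a library that stands apart the values were 0.09 and 0.06.

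The high dose of Coptidis Rhizoma, a berberine-containing rhizome, had the clearest rise in ribosomal-protein messenger RNA over its own low dose. The share of counts was 7.22%, 6.41% and 6.49% in the 3 high-dose libraries and 5.28%, 5.56% and 5.24% in the 3 low-dose libraries. The groups did not overlap, with means of 6.70% ± 0.45 and 5.36% ± 0.18 (SD, n = 3 each), and the two-sided exact permutation p was 0.1, the smallest that 3 against 3 libraries allow (adjusted p = 0.3 over 7 comparisons). The share of other coding genes with transcripts under 1000 bases moved with it, at 4.20%, 3.75% and 3.74% at the high dose against 3.48%, 3.65% and 3.43% at the low dose, without overlap, and its part in the result was not tested. High-dose replicate 1 was set against the mean of the other high-dose libraries. Genes outside the family with transcripts under 700 bases lay a median of 0.18 log2 above that mean, as did the members of that length. From 2000 to under 5000 bases the values were -0.02 and 0.15, with the same limit on the annotated lengths of the members. Mitochondrially encoded genes fell from 11.8% to 12.2% of counts at the low dose to 3.77% to 3.99% at the high dose. With their counts left out, the ribosomal-protein share was 7.52%, 6.66% and 6.74% against 6.01%, 6.34% and 5.94%, a difference of 0.881 percentage points where all counts gave 1.34. All of these are relative measures in bulk RNA, in which a change in the number of cells of a type and a change in the RNA per cell cannot be told apart.

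Gene by gene, 29 of the 79 members were higher and 2 were lower at the high dose than at the low dose (edgeR quasi-likelihood test, adjusted p below 0.05 over 16609 genes tested, all 79 members among them). In this comparison 27.1% of all genes tested were called higher and 25.3% lower, so that 36.7% of members called higher compares with 27.1% and 2.53% called lower with 25.3%. The median log2 change of the members was 0.23, and 74 of 79 were above 0, while the median over all genes tested was 0.00. The subunits gave like values: 17 of 47 large-subunit members were called higher with a median of 0.23, and 12 of 32 small-subunit members with a median of 0.22. Leaving out high-dose replicate 1, which had the highest share, gave 14 higher and 2 lower with a median of 0.15, and leaving out low-dose replicate 3 gave 16 and 2. Without the 4 libraries that stand apart, 51 members were called higher and 2 lower, and all 31 of the first calls were among them. None of the 4 belongs to these groups, but all of them enter the estimate of the spread. For the fits with libraries left out the share of all genes called is not given here. Whether these counts moved for the members only cannot be read from them.

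Of the large subunit, RPL4, whose extension lines the exit tunnel for the nascent chain, rose most. Its normalised CPM were 2795, 2701 and 2593 at the high dose and 2032, 2091 and 2085 at the low dose. The high-dose libraries all lay above the low-dose ones, a log2 change of 0.38 ± 0.07 (approximate SE; edgeR adjusted p = 9.56e-06). RPL23A, at the exit of that tunnel where factors for nascent chains dock, read 600, 559 and 595 CPM at the high dose against 448, 455 and 449. That is a log2 change of 0.38 ± 0.12 (edgeR adjusted p = 0.0070), and the groups did not overlap. RPL5 and RPL11, which together carry the 5S ribosomal RNA into the ribosome and also bind the ubiquitin ligase MDM2, were chosen for mention after their values were seen, and both rose, by log2 0.33 ± 0.09 (edgeR adjusted p = 0.0021) and 0.20 ± 0.08 (0.046). The stalk proteins RPLP0, RPLP1 and RPLP2, which recruit elongation factors and were also singled out afterwards, had log2 changes of 0.23, 0.34 and 0.17 with edgeR adjusted p of 0.056, 0.094 and 0.38.

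Of the small subunit, RPS23, a protein of the decoding centre, read 894, 788 and 789 CPM at the high dose against 632, 649 and 623, a log2 change of 0.38 ± 0.11 (edgeR adjusted p = 0.0050). RPS6, the substrate of the S6 kinases, read 1681, 1490 and 1522 CPM against 1195, 1219 and 1252, a log2 change of 0.36 ± 0.10 (edgeR adjusted p = 0.0018). For both genes every high-dose library lay above every low-dose library. RPS3A rose by log2 0.36 ± 0.13 (edgeR adjusted p = 0.019) and RPS13 by 0.35 ± 0.14 (0.026), again without overlap. The RPS13 call was lost when high-dose replicate 1 was left out (edgeR adjusted p = 0.11), and RPS3A then stood at 0.047. Besides 2 copies described next, 3 members lay below 0, and none of them passed the test: RPL6 (log2 change -0.07 ± 0.08, edgeR adjusted p = 0.47), RPL3 (-0.04 ± 0.07, 0.65) and RPS29 (-0.03 ± 0.25, 0.93).

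**Figure D3:**
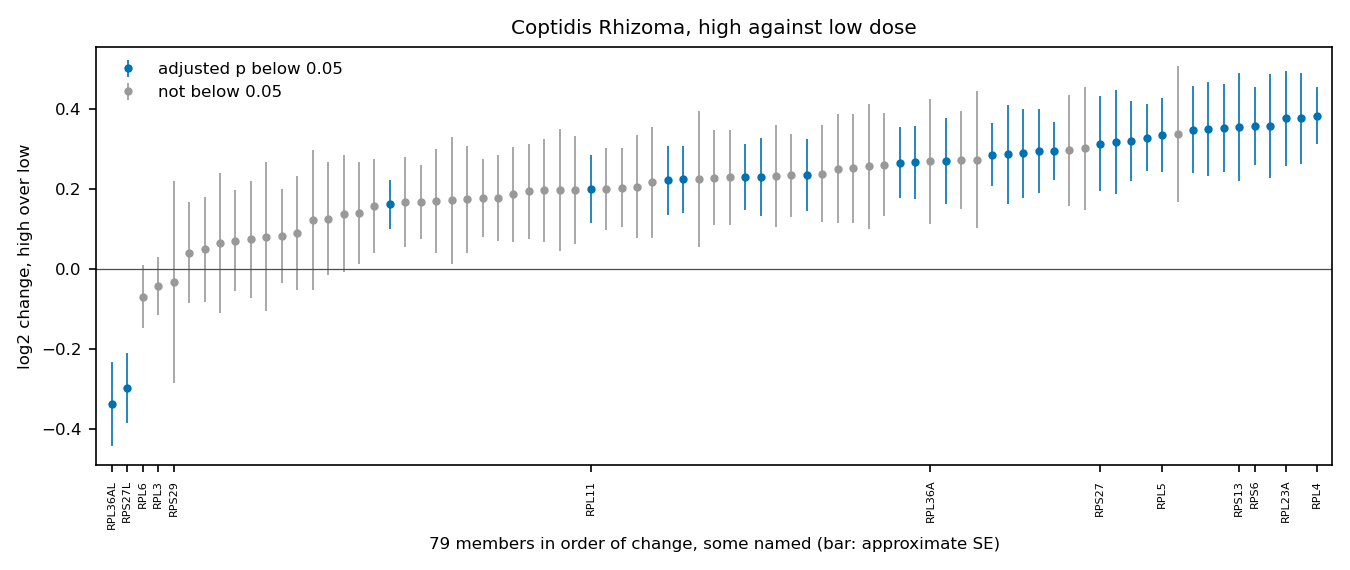
log2 change of each of the 79 members between the high and low dose of Coptidis Rhizoma (y axis), in order of change (x axis, with some members named); bars are approximate standard errors and blue marks an adjusted p below 0.05. RPL36AL (-0.34) and RPS27L (-0.30) lie apart at the left, and 74 members lie above 0.

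RPL36AL and RPS27L were the only 2 members called lower, under the main test and under each of the 14 alternatives tried. RPL36AL read 59.6, 49.7 and 53.8 normalised CPM at the high dose and 71.2, 70.4 and 64.3 at the low dose, and the groups did not overlap. Its log2 change was -0.34 ± 0.11 (edgeR adjusted p = 0.0062). RPS27L, the copy of RPS27, read 50.6, 45.2 and 49.5 CPM against 60.5, 57.6 and 60.5, again without overlap, a log2 change of -0.30 ± 0.09 (edgeR adjusted p = 0.0039). The parent gene RPS27 changed the other way, with 781, 587 and 767 CPM at the high dose against 581, 617 and 522, a log2 change of 0.31 ± 0.12 (edgeR adjusted p = 0.025), although replicate 2 of each dose overlapped. The parent gene RPL36A, at 475, 366 and 439 CPM against 364, 350 and 349, did not pass the test (log2 change 0.27 ± 0.16, edgeR adjusted p = 0.15).

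The ratio of a copy to its parent within a library needs no scaling between libraries. RPS27L stood at 6.48%, 7.70% and 6.46% of RPS27 at the Coptidis Rhizoma high dose and at 10.4%, 9.33% and 11.6% at the low dose. Its group mean of 6.88% ± 0.71 (SD, n = 3) was the lowest of the 20 groups, the next being the Scutellariae Radix high dose at 9.49% ± 0.77, and the fresh ginger low dose was highest at 13.5% ± 1.7. RPL36AL stood at 12.5%, 13.6% and 12.2% of RPL36A at the high dose and at 19.6%, 20.1% and 18.4% at the low dose. That high-dose mean of 12.8% ± 0.7 was also the lowest of 20, and the other 19 group means lay between 17.8% (Coptidis Rhizoma medium dose) and 22.2% (Scutellariae Radix high dose). For both pairs the 3 high-dose libraries lay below all 57 others. The ratio was taken only for these 2 pairs, whose copies had been called lower from the same counts. It is therefore not separate evidence, and other pairs of copies were not compared in this way. Because parent and copy are alike in sequence, the authors' counting had to divide some reads between them by estimate, and a read-through gene overlaps RPL36A.

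The medium dose of Coptidis Rhizoma lay close to the low dose. Between medium and low, 0 of 79 members were called by edgeR (1.31% of all genes tested were), 0 had an unadjusted p below 0.05, DESeq2 also called 0, and the median log2 change was 0.05. Between high and medium, 12 members were higher and 2 lower, against 24.4% and 22.2% of all genes tested, with a median of 0.16. RPL4 read 2149, 2185 and 2195 CPM at the medium dose, below all 3 high-dose values, and its log2 change from medium to high was 0.31 ± 0.07 (edgeR adjusted p = 0.00028). RPL36AL read 68.3, 68.3 and 62.7 CPM and RPS27L 57.1, 62.6 and 57.2 CPM at the medium dose, in both cases above all 3 high-dose values. Their log2 changes from medium to high were -0.29 ± 0.11 (edgeR adjusted p = 0.021) and -0.29 ± 0.09 (0.0070).

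Members with and without a TOP tract at an annotated RefSeq start had like medians between the high and low dose. All members below 0 lacked one at that exact base. A pyrimidine run that begins a few bases away was not counted, so a tract near the start is not excluded for them. All 46 members with such a start had a log2 change above 0 between the high and low dose, with a median of 0.22 and a range of 0.04 to 0.38. The 18 members without one had a median of 0.21 and a range of -0.34 to 0.38, and 72.2% of them were above 0. The 5 below 0 were RPL36AL, RPS27L, RPL6, RPL3 and RPS29, of which the first 2 passed the test. RPL4, also without a tract at its annotated start, had the highest change of all. The difference between members with and without such a start was not tested. Among genes outside the family, the median was 0.05 for 720 genes with such a start and 0.03 for 9627 without. Transcript length and GC content of the members had Pearson correlations of 0.01 (log2 length) and -0.02 with the change, as a description over 79 genes.

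Under wortmannin 8 members were lower and 0 higher (edgeR adjusted p below 0.05), where 10.8% of all genes tested were called lower and 9.72% higher. The 10.1% of members called is close to the first of these. The median log2 change was -0.22, with 78 of 79 members below 0, against 0.00 over all genes tested. A fall against this vehicle group was not particular to wortmannin. The high doses of fresh ginger, Pinelliae Tuber and Scutellariae Radix had medians of -0.26, -0.24 and -0.19 against it. Those of ginger, Coptidis Rhizoma and Zizyphi Fructus had -0.09, 0.05 and 0.06. The wortmannin comparison rests on a vehicle group that holds 1 of the libraries that stand apart. Without vehicle replicate 1 the count was 1 member and the median -0.10, and without vehicle replicate 3 it was 17 members and -0.28. Leaving out wortmannin replicate 1, 2 or 3 gave 3, 5 and 3 members. With all 4 libraries that stand apart left out, vehicle replicate 1 included, 6 members were called lower, at a median of -0.10. For these fits the share of all genes called is not given here, so the counts cannot be read as particular to the members. The ribosomal-protein share was 5.50%, 5.51% and 5.57% in the wortmannin libraries against 6.90%, 5.83% and 5.56% in vehicle, ranges that overlap (two-sided exact permutation p = 0.2, adjusted p = 0.3).

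RPL38, a large-subunit protein known for its part in the translation of Hox messenger RNAs in mouse embryos, fell most. It read 129, 164 and 150 normalised CPM under wortmannin and 236, 204 and 210 in vehicle, so that the groups did not overlap. Its log2 change was -0.55 ± 0.13 (edgeR adjusted p = 0.0014), and it stayed below 0.05 in all 14 alternatives (highest 0.019). RPS26, which contacts the messenger RNA at the exit channel, read 286, 293 and 278 CPM against 475, 356 and 324, a log2 change of -0.43 ± 0.13 (edgeR adjusted p = 0.019). RPL35 (log2 change -0.39 ± 0.13), RPL36AL (-0.36 ± 0.11) and RPL17 (-0.30 ± 0.11) also fell without overlap, with edgeR adjusted p between 0.013 and 0.041. RPL38 was the 1 member still called without vehicle replicate 1, where the adjusted p of RPS26, RPL35, RPL36AL and RPL17 lay between 0.11 and 0.31. RPS27L and RPS6 were also called lower, with log2 changes of -0.27 ± 0.09 (edgeR adjusted p = 0.024) and -0.27 ± 0.10 (0.045). RPL4 (-0.06), RPL10 (-0.03), RPL3 (-0.01) and RPL12 (0.03) had the changes nearest to or above 0, and none passed the test.

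**Figure D4:**
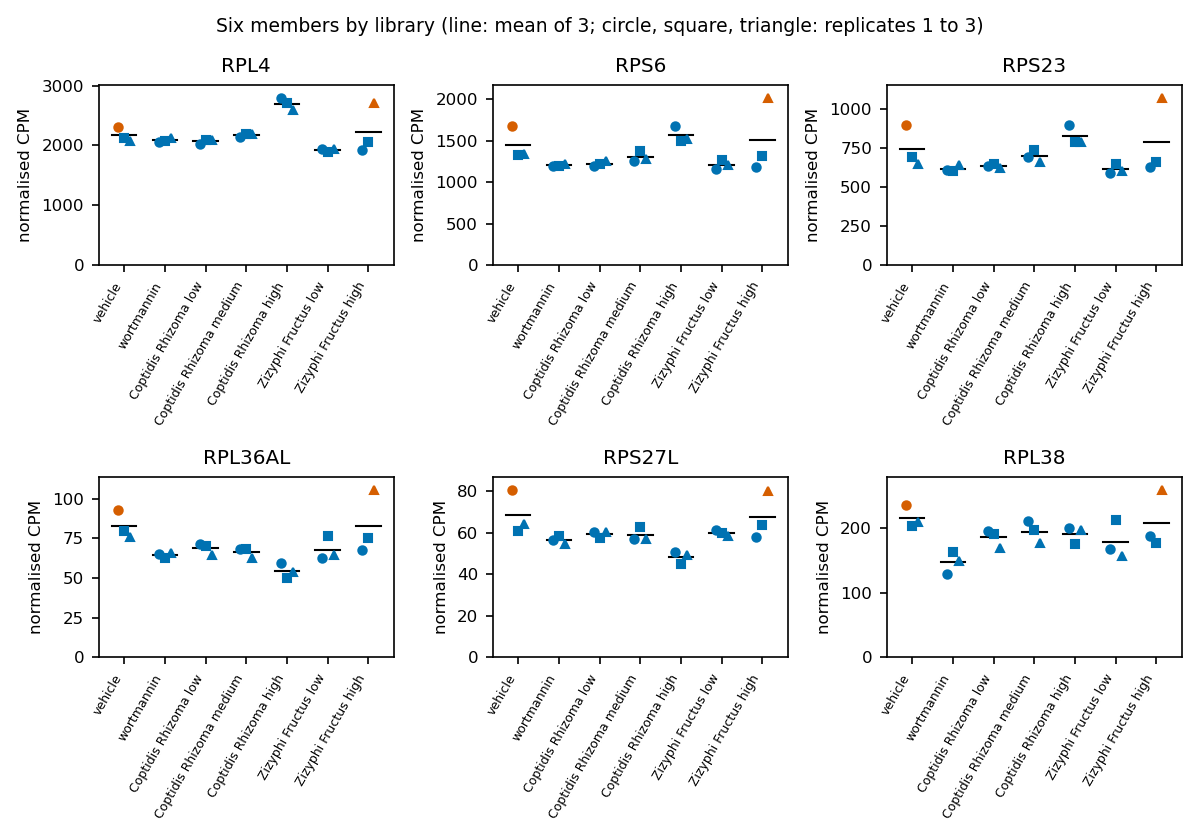
Normalised CPM (y axis, from 0) of 6 members in 7 groups (x axis); symbols are replicates 1 to 3, lines are means of 3 and orange marks libraries that stand apart. RPL4 has its highest library at the Coptidis Rhizoma high dose and RPS6 and RPS23 in the orange Zizyphi Fructus library, RPL36AL and RPS27L have their 3 lowest libraries at the Coptidis Rhizoma high dose, and RPL38 has its lowest mean under wortmannin (129, 164 and 150 CPM).

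Zizyphi Fructus, the jujube fruit, had the largest median change of the 6 extracts, and it rested on 1 library. Between the high and low dose all 79 members had a log2 change above 0 and the median was 0.36, yet edgeR called 0 (0.0482% of all genes tested were called), although 74 had an unadjusted p below 0.05. DESeq2 called 56 higher. Without high-dose replicate 3 the median was 0.07, 0 members were called by edgeR and 0 had an unadjusted p below 0.05. Without high-dose replicate 1 or 2 the count called by edgeR was 76 and 63. The share of all genes called by DESeq2 or without replicate 1 or 2 is not given here. RPS6 and RPS29 are given here, and RPS29 and RPLP1 for fresh ginger, after their values were seen. RPS6 read 1186, 1311 and 2014 normalised CPM at the high dose and 1156, 1268 and 1204 at the low dose. RPS29, a zinc-binding protein of the small subunit, read 77.5, 83.3 and 190 CPM against 60.6, 74.5 and 79.1. In both genes replicate 3 alone lay far above the low-dose libraries.

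Fresh ginger and ginger had medians of opposite sign, each with 1 library that stands apart. For fresh ginger all 79 members were below 0 between high and low dose, with a median of -0.14, and edgeR and DESeq2 each called 0 (1.79% of all genes tested by edgeR, 5 members with an unadjusted p below 0.05). Without low-dose replicate 1 the median was -0.04. RPS29 had the largest change, with 67.3, 62.6 and 44.8 CPM at the high dose and 119, 55.2 and 92.7 at the low dose, ranges that overlap (log2 change -0.59, edgeR adjusted p = 0.29). For ginger all 79 were above 0, with a median of 0.15, and edgeR and DESeq2 each called 0 (0.915% of all genes tested by edgeR, 5 members with an unadjusted p below 0.05). Without high-dose replicate 2 the median was 0.06. RPLP1, for which the fresh ginger high dose was the lowest of the 20 groups, read 1170, 954 and 896 CPM there and 1702, 922 and 1410 at the low dose, ranges that also overlap.

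Pinelliae Tuber and Scutellariae Radix, which hold none of the 4 libraries, moved the members little between high and low dose. Against vehicle, whose replicate 1 is among the 4, their high doses had medians of -0.24 and -0.19. For Pinelliae Tuber the median log2 change between high and low dose was -0.05, edgeR and DESeq2 called 0 members and 0 had an unadjusted p below 0.05, with 0.0421% of all genes tested called. For Scutellariae Radix, where 8.42% of all genes tested were called lower and 7.92% higher, the median was 0.00 and 1 member was lower. That member was RPS27L, at 53.5, 46.5 and 54.1 normalised CPM at the high dose and 58.7, 58.7 and 67.5 at the low dose, without overlap. Its log2 change was -0.26 ± 0.09 (edgeR adjusted p = 0.034), and the call was lost without high-dose replicate 2 or low-dose replicate 3 (highest adjusted p 0.23). RPL36AL did not pass the test there (log2 change 0.10 ± 0.10, edgeR adjusted p = 0.60), with 81.3, 74.3 and 80.7 CPM against 77.5, 68.4 and 74.4. Between the medium dose of Scutellariae Radix and its other doses, edgeR and DESeq2 called 0 members and 0 had an unadjusted p below 0.05, with 5.09% of all genes tested called between high and medium and 3.35% between medium and low. The difference between Scutellariae Radix and Pinelliae Tuber in their high against low change called 0 members by edgeR and by DESeq2 (6.3% of all genes tested by edgeR, 1 member with an unadjusted p below 0.05), with a median of 0.06.

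**Figure D5:**
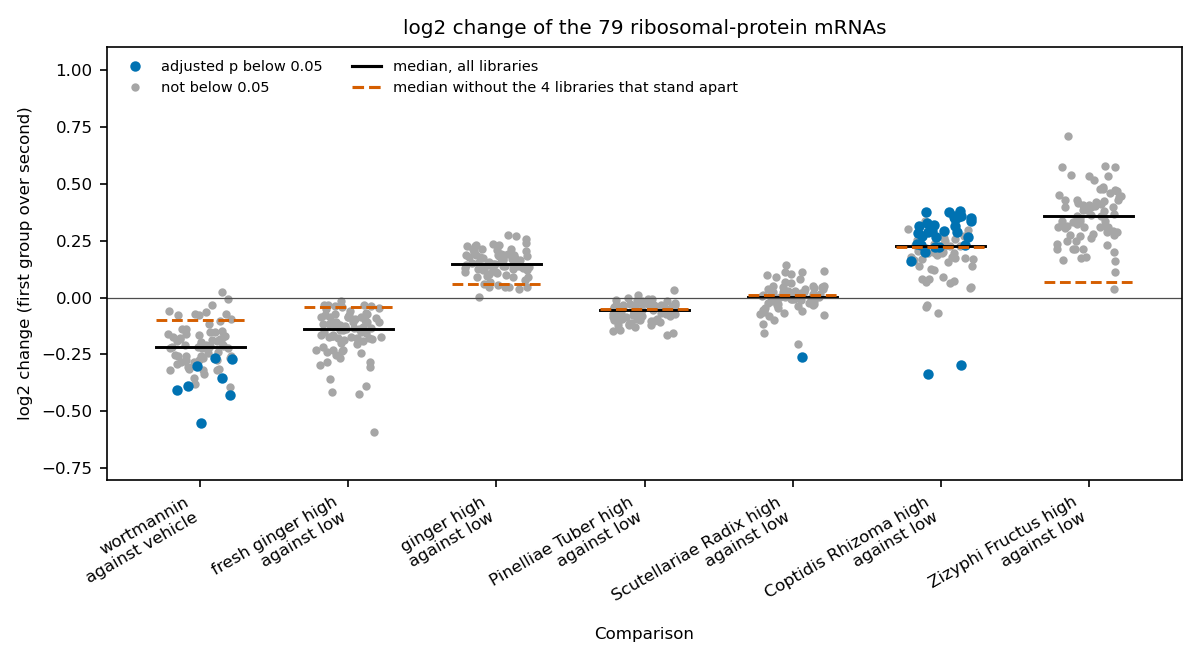
log2 change of each of the 79 members (points) in 7 comparisons (x axis); solid lines are medians with all libraries and dashed lines medians without the 4 libraries that stand apart. The median moves from 0.36 to 0.07 for Zizyphi Fructus and from -0.22 to -0.10 for wortmannin, and stays at 0.22 to 0.23 for Coptidis Rhizoma.

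The change between high and low dose was compared directly between Coptidis Rhizoma and Zizyphi Fructus, whose top doses differ (290 and 500 µg/mL). With all libraries, 3 members were called lower under Coptidis Rhizoma and 0 higher, against 21.1% and 20.4% of all genes tested, and the median difference was -0.13. These were RPL36AL (-0.62 ± 0.15, edgeR adjusted p = 0.00068), RPS27L (-0.46 ± 0.12, 0.0022) and RPL6 (-0.30 ± 0.11, 0.022). Without Zizyphi Fructus high replicate 3 the median difference turned to 0.14, with 9 members higher and 2 lower. For that fit the share of all genes called is not given here. RPL36AL under Zizyphi Fructus read 67.9, 75.1 and 105 CPM at the high dose against 62.5, 76.6 and 64.7 at the low dose, and RPS27L read 58.0, 63.9 and 80.2 against 61.3, 59.9 and 58.5, in both cases highest in replicate 3.

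Set against vehicle, the Coptidis Rhizoma high dose had 3 members higher and 3 lower, where 26.6% and 27.1% of all genes tested were called. The median log2 change of the members was 0.05, against 0.23 for high over low dose. It ranged from -0.02 to 0.17 with 1 library left out at a time. RPL4, RPL7 and RPS27 were higher (log2 0.31, 0.21 and 0.29) and RPL36AL, RPS27L and RPL6 were lower (-0.60, -0.49 and -0.22). The same vehicle group gave 1 lower member for fresh ginger (RPLP1, log2 change -0.61, edgeR adjusted p = 0.046, with 0.777% of all genes tested called lower) and 1 for Scutellariae Radix (RPS27L, -0.41, 0.00052, with 10.6%). For ginger (0.789% of all genes tested called), Pinelliae Tuber (0.187%) and Zizyphi Fructus (0.0181%) 0 members were called by edgeR and by DESeq2. Of the members, 0, 38 and 0 had an unadjusted p below 0.05, a threshold for which the share of all genes is not given here. Without the 4 libraries that stand apart, vehicle replicate 1 among them, the fresh ginger call was lost and the Coptidis Rhizoma count was 36 members. For that fit the share of all genes called is not given here.

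Genes of related lists were read against the 27.1% of all genes tested that were called higher at the Coptidis Rhizoma high dose and the 25.3% called lower. Of 20 translation factors and other TOP messenger RNAs, 12 were higher and 2 lower than at the low dose, with a median of 0.17. EEF2, the translocation factor, rose by log2 0.45 (1787, 1793 and 1868 CPM at the low dose, 2476, 2563 and 2389 at the high dose, edgeR adjusted p = 9.81e-12), and EEF1A1 and TPT1 rose by 0.39 and 0.46. Of 20 ribosome biogenesis genes, 4 were higher and 9 lower, with a median of -0.10. NOP56 and NCL, which serve in the nucleolus, fell by 0.47 and 0.42 on the log2 scale, as did the RNA polymerase I factor UBTF by 0.37, whereas RRN3, which brings that polymerase to its promoter, rose by log2 0.48. Of 13 regulators of TOP messenger RNAs, 3 were higher and 2 lower. EIF4EBP1, the repressor of cap-dependent translation that mTORC1 switches off, read 17.2, 19.5 and 18.6 CPM at the low dose and 68.7, 59.2 and 53.8 at the high dose, a 3.28-fold rise (edgeR adjusted p = 4.36e-15). DEPTOR, an inhibitor within the mTOR complexes, rose by log2 0.66, and RPTOR fell by 0.36 on the log2 scale. Of 78 mitochondrial ribosomal proteins tested, 7 were higher and 24 lower, with a median of -0.05, and the share called lower is near that of all genes.

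Ribosomal proteins whose symbols fall outside the rule gave mixed results. At the Coptidis Rhizoma high dose RACK1 rose by log2 0.27 (edgeR adjusted p = 7.64e-05), while FAU, made as a fusion with a ubiquitin-like protein, had a change of 0.06 that did not pass the test. RPL22L1, a copy of RPL22, rose by log2 0.43 (edgeR adjusted p = 0.0098, lost without high-dose replicate 1), RPL26L1 stood at 0.25 (0.080) and RPL7L1 at 0.06 (0.36). Under wortmannin FAU, RPL26L1 and RPL7L1 were lower by edgeR (log2 -0.38, -0.44 and -0.21) and RACK1 was not (-0.05), and each of these 3 calls was lost without vehicle replicate 1. Of the biogenesis genes 10 of 20 were lower under wortmannin and 0 higher, and of the mitochondrial ribosomal proteins 40 of 78 were lower and 0 higher, where 10.8% of all genes tested were called lower and 9.72% higher. These list counts were not repeated without vehicle replicate 1. DEPTOR rose by log2 0.54 and RHEB, the activator of mTORC1, fell by 0.33 on the log2 scale, with all 14 alternatives keeping both calls.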

How the data were processed

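Total RNA of HT29 cells was sequenced, and the authors deposited expected counts per gene, estimated with RSEM 1.3.3 after trimming with Trim Galore 0.6.5 and alignment with STAR 2.7.3a to GRCh38, per the submitters' processing notes. The annotation release is not given in the sources used here. RSEM divides reads shared by alike sequences, such as ribosomal-protein genes and their pseudogenes, by estimate. Of the values, 8.75% were not whole, and all were rounded. Columns of 210 other samples were not used.

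Symbols, transcript lengths and coordinates came from GENCODE 29, and start sequences from RefSeq. Genes with low counts were removed by edgeR's filterByExpr. One edgeR 4.0.16 quasi-likelihood model (R 4.3.3, TMM scaling, robust, 1 coefficient per group, 40 residual degrees of freedom) was fitted over 60 libraries and 16609 genes with Benjamini-Hochberg adjustment, called below 0.05. Approximate SEs are the absolute log2 change over the square root of F. Counts of members at an unadjusted p below 0.05 are given without the share of all genes at that threshold. Shares of counts were compared by two-sided exact permutation tests. The fit was tested on simulated data. Alternatives were DESeq2 1.42.0, other scalings and filters, a replicate block and libraries left out.

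The members and gene lists were chosen with earlier results of these data known. Named members were those called without overlap (up to 6 in each direction per comparison), the 3 highest and lowest per length, the 3 on each side farthest from the median under Coptidis Rhizoma, those at the CPM limit and fixed pairs of copies. From other lists, up to 4 genes with the smallest p were named. Some genes that this rule names are not reported here.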

Additional observations from a re-analysis of the deposited data

Results flagged for a closer look

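Changes between high and low dose of 3 members differed between Coptidis Rhizoma and Zizyphi Fructus by a test of the difference itself (edgeR interaction contrast). The differences were -0.62 on the log2 scale for RPL36AL, -0.46 for RPS27L and -0.30 for RPL6. The Zizyphi Fructus high dose holds the library with the highest ribosomal-protein share (8.20%), and without the 4 libraries that stand apart 2 of these 3 members were still called. Groups of 3 libraries were too small for an outlier test.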

How the results depend on the processing

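With no filter on low counts (34761 genes tested), members called were 53 for wortmannin, 17 for fresh ginger, 7 for ginger, 2 for Scutellariae Radix, 60 for Coptidis Rhizoma, 73 for Zizyphi Fructus and 20 (all lower) for the difference between the last 2 extracts, against 8, 0, 0, 1, 31, 0 and 3. Fitting only the libraries compared gave 4 for Scutellariae Radix and 54 for Coptidis Rhizoma. Library totals without TMM gave 59 for Coptidis Rhizoma and 7 for the difference (5 higher, 2 lower), a contrast in which that scaling shifted genes by a median of 0.15 log2. Without the 4 libraries that stand apart, Coptidis Rhizoma gave 53 and the difference 21 (19 higher, 2 lower). DESeq2's Wald test gave 56 for Zizyphi Fructus. Without mitochondrially encoded counts the Coptidis Rhizoma share difference was 0.881 percentage points. The cause of these shifts was not tested. The share of all genes called is not given for these settings, nor for the counts with libraries left out. Whether a count moved for the members only therefore cannot be read from it.

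Leaving out 1 library at a time gave 1 to 17 members for wortmannin, 0 to 2 for fresh ginger, 0 to 1 for Scutellariae Radix, 16 to 31 for Coptidis Rhizoma, 0 to 76 for Zizyphi Fructus and 2 to 16 for the difference; ginger, Pinelliae Tuber and the difference between Scutellariae Radix and Pinelliae Tuber stayed at 0. With the replicate number as a block, Coptidis Rhizoma gave 29 members and no other of the 9 counts changed. The numbers share no source in the labels, and same-numbered libraries deviated together with correlations of -0.082 to 0.115, and 19 of 42 libraries correlated best with their own number. Of the members called in any comparison, interactions and comparisons with vehicle included, 0 changed direction under the alternatives run. The 3 libraries per group and a within-group SD near 0.15 log2 limit what change can be seen in a single member.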

Other observations

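Pseudogenes of ribosomal proteins, of which 41 reached a mean of 1 CPM, held 0.0657% to 0.0746% of counts at the Coptidis Rhizoma high dose and 0.0569% to 0.0749% in the 4 libraries that stand apart, against 0.0506% to 0.0598% in the 53 other libraries. The ratio of counts on large-subunit to small-subunit members was 1.50 to 1.54 in the 4 libraries, 1.56 to 1.58 at the Coptidis Rhizoma high dose and 1.54 to 1.61 in the others.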
